A study of Mus musculus with 18 samples.

Results

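The centromere protein genes described here are 10 Cenp genes of the mouse: Cenpa, Cenpb, Cenpe, Cenpf, Cenph, Cenpi, Cenpk, Cenpm, Cenpn and Cenpt. They were listed by name, with earlier results of these data known. The platform annotation gives each of the 10 exactly 1 probe set of its own, among the 19938 genes tested. The list does not hold every Cenp gene on the array: 12 other Cenp and inner centromere genes were measured too and are described further below. RNA came from wild type C57BL/6 mouse embryonic fibroblasts, the connective tissue cells that grow out of embryos, which were taken at embryonic day 13 with the head and liver removed. The cultures were exposed to 100 nM dexamethasone for 2 h, a glucocorticoid that sets the circadian clocks of cultured cells to a common phase. Every sample received this treatment, so the series holds no untreated group. RNA was collected 22, 26, 30, 34, 40 and 46 h after dexamethasone, with 3 samples at each time and 1 array for each sample, 18 arrays in all. The labels trace the fibroblasts to 2 mice and call the 3 samples of a time biological replicates without saying how the cultures were kept apart, so the tests see the spread among these samples only, which may be technical. They describe the growth medium in differing ways. Levels are log2(intensity + 16) after quantile normalization, and levels of different Cenp genes are not compared with each other. Cell type markers are set beside the median level of all genes, which does compare different probe sets.

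Centromere proteins build the site on each chromosome where spindle microtubules attach. Nucleosomes with the histone H3 variant Cenpa mark the centromere, an inner network of Cenp proteins sits on them throughout the cell cycle, and outer proteins such as Cenpe and Cenpf join when the cell enters mitosis. The names record where the proteins were found, not shared ancestry. Several of these genes are known as cell cycle genes, with most RNA in G2 and mitosis. In RNA from whole cultures, fewer cells in division and less RNA per cell cannot be told apart.

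The array medians lay between 196 and 210 intensity units. They went with time: arrays of 40 h and 46 h had medians from 203.8 to 210.2, and arrays of the earlier times from 195.9 to 202.2. Of 12 fibroblast markers, 10 lay above the median level of all genes (8.07), with a list median of 12.28. No macrophage, endothelial, epithelial or adipocyte marker did (0 of 22 over these lists), while 2 of 5 skeletal muscle markers and 3 of 5 neural markers did. Between 22 h and 46 h the summed level of the fibroblast markers moved from between 15.84 and 15.92 to between 16.06 and 16.08, with 6 of 12 called higher and 1 lower, and that of the epithelial markers from between 10.10 and 10.16 to between 9.87 and 9.93, with 2 of 6 called lower. Of the other lists, 2 of 5 skeletal muscle markers were called higher, and 1 of 6 macrophage and 1 of 5 neural markers lower. Of all genes, 11.5% were called higher and 9.73% lower, so 1 call in so short a list says little. The part of the marker changes in the results below was not tested.

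The comparison of 46 h with 22 h asked whether these 10 Cenp genes returned to their starting level after 24 h. They did not: 9 of the 10 genes fell and none rose by limma's test, where 9.73% of all genes fell. Over the 10 genes the median difference was -1.26 log2, beside 0.03 over all genes. The 12 other Cenp and inner centromere genes had a median of -0.49, with 9 called lower. On the log2 scale 8 genes fell by more than 1, a size reached by 0.782% of all genes. For these 9 genes every array at 46 h lay below every array at 22 h, which held for 15.3% of all genes. The exceptions in size were Cenpt, which fell by 0.36, and Cenpb, which did not pass the test.

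The largest falls were those of Cenpe and Cenpf, the genes of 2 outer, mitotic proteins. Cenpe encodes a kinesin motor that carries chromosomes toward the spindle equator. Its level was 10.39, 10.12 and 10.36 on the arrays of 22 h and 8.55, 8.29 and 8.48 on those of 46 h. No array of 46 h came near those of 22 h, and the level fell by 1.85 ± 0.11 (SE, n = 18 arrays in the fit; adjusted p = 2.21e-09, limma), a 3.60-fold change on this scale. Cenpf encodes a long coiled-coil protein that binds microtubules and links kinetochores to dynein. It stood at 10.08, 9.83 and 10.16 at 22 h and at 8.32, 8.01 and 8.34 at 46 h. It fell by 1.80 ± 0.11 (adjusted p = 2.82e-09), and replicate 2 was the lowest array at both times.

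Cenpa fell and Cenpb did not pass. Cenpa, whose protein replaces histone H3 in centromeric nucleosomes, stood at 11.09, 10.85 and 11.08 at 22 h and at 9.55, 9.30 and 9.47 at 46 h. It fell by 1.57 ± 0.08 (adjusted p = 7.5e-10). Cenpb, which binds a short sequence of the centromeric satellite repeats, stood at 9.31, 9.57 and 9.39 at 22 h and at 9.48, 9.74 and 9.45 at 46 h. These groups overlapped. The difference was 0.13 ± 0.09 (adjusted p = 0.362), with a 95% interval from -0.07 to 0.33, which leaves room for a rise but not for a fall of the size seen in Cenpa.

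Cenph, Cenpi, Cenpk, Cenpm and Cenpn, genes of the inner network, fell by amounts between those of Cenpe and Cenpt. Cenph, Cenpi, Cenpk and Cenpm encode subunits of 1 complex. Cenpi fell the most of these, by 1.45 ± 0.12, from arrays between 8.80 and 9.21 to arrays between 7.35 and 7.75. Cenph fell by 1.25 ± 0.14, Cenpm by 1.19 ± 0.08 and Cenpk by 1.098 ± 0.14, with adjusted p from 7.17e-09 to 2.06e-05. Cenpn, which recognises Cenpa nucleosomes together with Cenpl, fell by 1.26 ± 0.08 (adjusted p = 2.72e-09), from arrays between 10.22 and 10.58 to arrays between 9.15 and 9.23. Cenpt, a protein with a histone fold that recruits the outer Ndc80 complex, stood at 9.65, 9.75 and 9.62 at 22 h and at 9.30, 9.32 and 9.33 at 46 h. Its arrays did not overlap either, and its spread was the smallest of the 10 genes. The fall of 0.36 ± 0.05 passed (adjusted p = 6.18e-05).

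**Figure D1:**
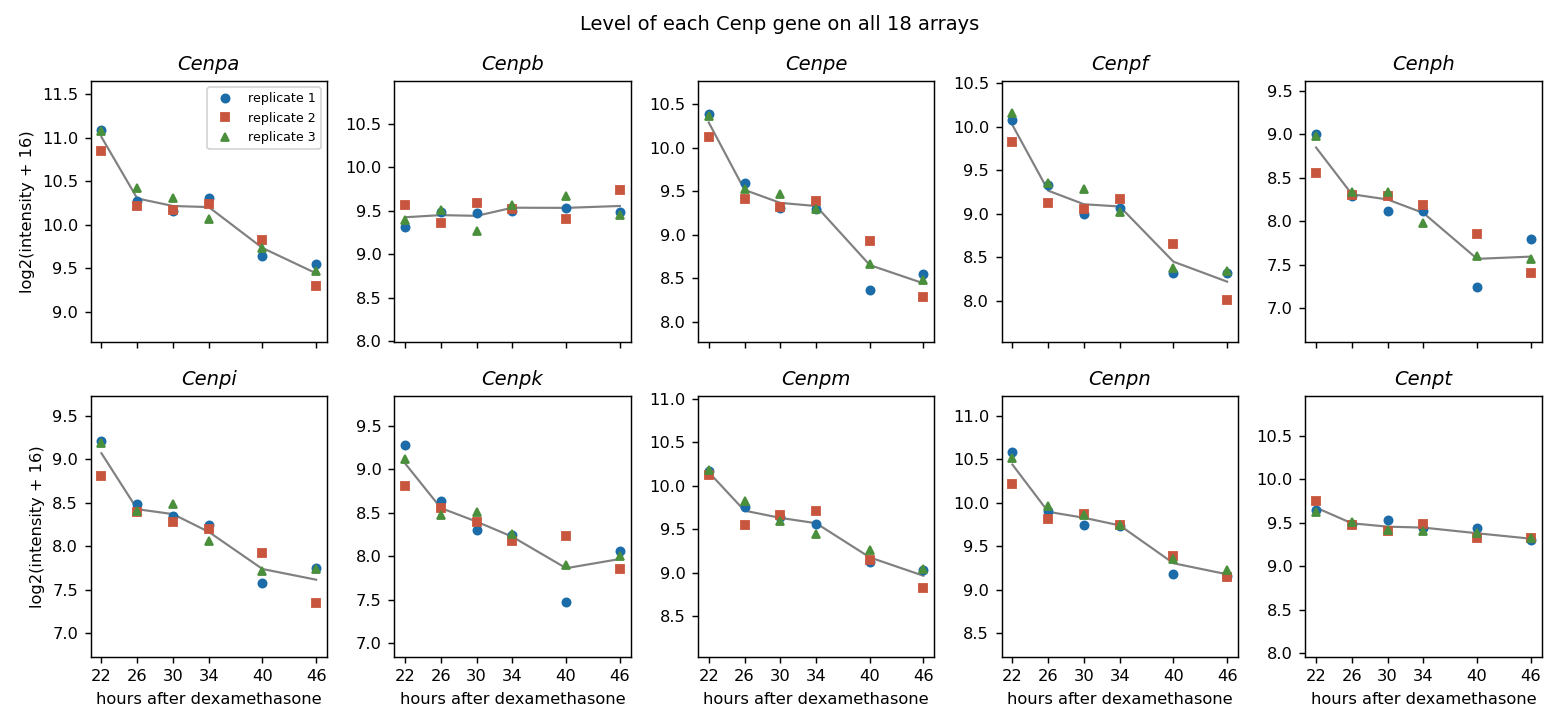
Each panel plots log2(intensity + 16) of 1 gene against hours after dexamethasone on all 18 arrays. Symbols mark the replicate number, the line joins the means of 3 arrays, and every panel spans 3 log2 units around its own mean. Cenpb stays between 9.26 and 9.74 throughout, while Cenpe drops from a mean of 10.29 to 8.44.

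To see how far the genes differed from each other, the change between 22 h and 46 h was compared for all 45 pairs of genes as a difference on the same array. The spread came from the 12 residual degrees of freedom of the time means, and 95% intervals were widened for 45 pairs (Bonferroni). This comparison was added after the data were seen. The interval left out 0 in 28 pairs. All 9 pairs with Cenpb were among the 28, and so were 7 of the other 8 pairs with Cenpt. The exception was Cenpk, which fell by 0.74 more than Cenpt with an interval of the difference from -1.56 to 0.08. Among the 8 genes with the larger falls, 12 of 28 intervals left out 0. Cenpe fell more than Cenpi by 0.39 (interval -0.69 to -0.10) and more than Cenpn by 0.59 (-0.94 to -0.23), and Cenpf differed from the same genes by 0.35 (-0.61 to -0.08) and 0.54 (-0.91 to -0.17). Cenpe differed from Cenpa by -0.28 (interval -0.64 to 0.08) and Cenpf by -0.23 (-0.52 to 0.05), and neither interval left out 0. Cenpe and Cenpf did not differ detectably from each other (-0.05, interval -0.31 to 0.21). The same was true of the complex subunits Cenph and Cenpm (-0.06, interval -0.68 to 0.55), where the interval is wide. With the spread taken only from the 6 arrays of 22 h and 46 h, which leaves fewer residual degrees of freedom, 7 of the 45 intervals left out 0. How far probe sets differ in their response to a given change in RNA was not tested.

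Promoters of genes with the larger falls are shown beside those of Cenpt, which fell by less, and Cenpb, which did not pass. Sequences are from RefSeq (build GRCm38.p6), 150 bases before the start of the gene and the first 25 bases from it, in the direction of transcription. Capitals mark the motifs found in these windows: CCAAT (the CCAAT box, ATTGG when read on the opposite strand), TTTGAA (the cell cycle homology region, or CHR, TTCAAA on the opposite strand) and TTCCCGC (an E2F core, GCGGGAA on the opposite strand). The windows of the 3 genes with the largest falls come first, then Cenpn, whose window holds all 3 motifs, and then Cenpb and Cenpt.
Cenpa (chr5:30666736-30666910, plus strand): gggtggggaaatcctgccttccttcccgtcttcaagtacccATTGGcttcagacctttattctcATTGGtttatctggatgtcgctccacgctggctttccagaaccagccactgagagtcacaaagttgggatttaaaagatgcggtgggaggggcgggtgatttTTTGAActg
Cenpe (chr3:135212413-135212587, plus strand): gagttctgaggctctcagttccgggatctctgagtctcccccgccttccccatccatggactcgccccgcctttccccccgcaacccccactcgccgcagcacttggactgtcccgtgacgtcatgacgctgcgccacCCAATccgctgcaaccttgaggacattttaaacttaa
Cenpf (chr1:189688062-189688236, minus strand): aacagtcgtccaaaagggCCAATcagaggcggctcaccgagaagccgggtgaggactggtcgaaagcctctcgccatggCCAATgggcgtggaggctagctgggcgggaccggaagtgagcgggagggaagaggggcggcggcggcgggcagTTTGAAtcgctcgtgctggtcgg
Cenpn (chr8:116921590-116921764, plus strand): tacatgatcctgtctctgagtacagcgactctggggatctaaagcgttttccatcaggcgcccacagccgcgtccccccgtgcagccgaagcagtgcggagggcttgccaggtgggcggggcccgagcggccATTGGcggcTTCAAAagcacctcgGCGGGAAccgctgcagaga
Cenpb (chr2:131180043-131180217, minus strand): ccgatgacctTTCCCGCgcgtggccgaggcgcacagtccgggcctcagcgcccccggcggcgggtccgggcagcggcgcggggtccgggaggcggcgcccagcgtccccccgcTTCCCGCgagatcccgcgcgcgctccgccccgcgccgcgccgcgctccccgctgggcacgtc
Cenpt (chr8:105851984-105852158, minus strand): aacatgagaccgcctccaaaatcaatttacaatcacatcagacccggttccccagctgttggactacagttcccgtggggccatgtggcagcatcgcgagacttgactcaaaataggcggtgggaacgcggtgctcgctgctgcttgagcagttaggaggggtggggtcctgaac

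All 10 genes matched the RefSeq promoter table, Cenpk with 3 promoters. In the full windows of 250 bases before and 50 bases from the start, on either strand, CCAAT was present in 8 of 10 genes, against 41.1% of 27025 genes in the table. These were the 8 genes that fell by more than 1 log2, and the letters were found in neither Cenpb nor Cenpt. The motifs were chosen with earlier results of these data known, and Cenpk lay close to the cut, with a fall of 0.97 at a constant of 64. Counted from the gene start, Cenpa held the letters at positions -109 and -86, Cenpf at -132 and -71, Cenpm at -172 and -131, and Cenpe at -12. In Cenph and Cenpi they lay past the start, at bases 32 and 8. Cenpk held them in each of its 3 promoters, so more sequence was searched for this gene. The CHR letters TTTGAA were present in Cenpa, Cenpf and Cenpn, against 20.2% of genes. In Cenpa they began at base 17 of the gene, in Cenpf at base 3, and in Cenpn at position -9, close to a CCAAT box at -18. The E2F core TTCCCGC was present in Cenpb, Cenph, Cenpk, Cenpm and Cenpn (5.29% of genes). Another E2F core, TTGGCGC, and the E-box CACGTG, which clock proteins bind, were present in 0 of the 10 genes (2.85% and 8.09% of genes). No pair of matches in the 6 windows printed shares bases. A match is a description of the letters in these windows only.

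Over the 6 times, limma's F test called the same 9 genes, where 19.8% of all genes were called. Adjusted p ran from 1.81e-08 for Cenpa to 0.0012 for Cenpt, and was 0.715 for Cenpb. The 9 genes were highest at 22 h. Of these, 7 were lowest at 46 h, while Cenph and Cenpk were lowest at 40 h. Without the arrays of 22 h, an alternative added after the data were seen, 8 genes passed, where 10.5% of all genes did, and Cenpt did not (adjusted p = 0.119).

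Comparisons of neighbouring times were made to see where in the series the genes fell. From 22 to 26 h, 7 of 10 genes fell, where 1.23% of all genes did. Cenpe fell by 0.77 ± 0.11 (adjusted p = 0.000713, limma), Cenpf by 0.75 ± 0.11, Cenpa by 0.71 ± 0.08, Cenpi by 0.64 ± 0.12, Cenpn by 0.54 ± 0.08, Cenph by 0.54 ± 0.14 and Cenpm by 0.44 ± 0.08. Cenpa went from arrays between 10.85 and 11.09 to arrays between 10.21 and 10.42 over this interval. The groups did not overlap in 9 of 10 genes (7.05% of all genes). Cenpk (-0.51 ± 0.14, adjusted p = 0.0685) and Cenpt (-0.18 ± 0.05, adjusted p = 0.0783) did not pass. The call for Cenph (adjusted p = 0.0474) was lost without any 1 of 13 arrays, and that for Cenpi without replicate 1 or replicate 3 of 22 h (adjusted p = 0.0545 and 0.0552).

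From 26 to 34 h no fall was called in the 10 genes. Between 26 and 30 h 0 of 10 genes and 0% of all genes were called by limma, and 0 of the 10 had an unadjusted p under 0.05, beside 517 of all genes. Between 30 and 34 h 0 of 10 genes fell, again with 0 at an unadjusted p under 0.05, where 0.0752% of all genes fell. Taken in 1 step, a contrast added after the data were seen, the difference between 34 h and 26 h ran from -0.33 in Cenpk to 0.08 in Cenpb. It passed in 0 of 10 genes (0.0652% of all genes fell), with an unadjusted p under 0.05 in Cenpi and Cenpk. For Cenpe the difference was -0.19, with a 95% interval from -0.42 to 0.05, and for Cenpa -0.10, with an interval from -0.28 to 0.08.

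A further fall came between 34 and 40 h, in 5 of 10 genes, where 0.727% of all genes fell. Cenpe stood at 9.30, 9.39 and 9.30 at 34 h and at 8.37, 8.93 and 8.66 at 40 h. The arrays of 40 h were thus spread wider than those of 34 h, but all were lower. The fall was 0.68 ± 0.11 in Cenpe (adjusted p = 0.00536, limma), 0.63 ± 0.11 in Cenpf, 0.47 ± 0.08 in Cenpa, 0.43 ± 0.08 in Cenpn and 0.39 ± 0.08 in Cenpm. Cenph (-0.53 ± 0.14, adjusted p = 0.0875), Cenpi (-0.43 ± 0.12, adjusted p = 0.111) and Cenpk (-0.36 ± 0.14, adjusted p = 0.288) did not pass. In Cenpk the arrays of 40 h were 7.47, 8.23 and 7.90, and the largest of them lay level with the 34 h arrays (8.24, 8.18 and 8.26). The groups did not overlap in 7 of 10 genes (8.41% of all genes). The count of 5 genes rested on single arrays. It was 1, Cenpe, without replicate 2 of 34 h or replicate 1 of 40 h, 3 without replicate 1 of 34 h and 8 without replicate 2 of 40 h.

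From 40 to 46 h 0 of 10 genes passed, where 0.01% of all genes fell. The differences ran from -0.29 in Cenpa to 0.11 in Cenpk, with an unadjusted p under 0.05 in Cenpa and Cenpm. By 34 h the 9 genes that fell had covered from 49.2% (Cenpm) to 76.8% (Cenpk) of their change between 22 h and 46 h, and by 40 h from 81.4% (Cenpa) to 110% (Cenpk). Cenpe changed by -0.19 log2 per hour from 22 to 26 h, -0.02 from 26 to 34 h, -0.11 from 34 to 40 h and -0.03 from 40 to 46 h.

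**Figure D2:**
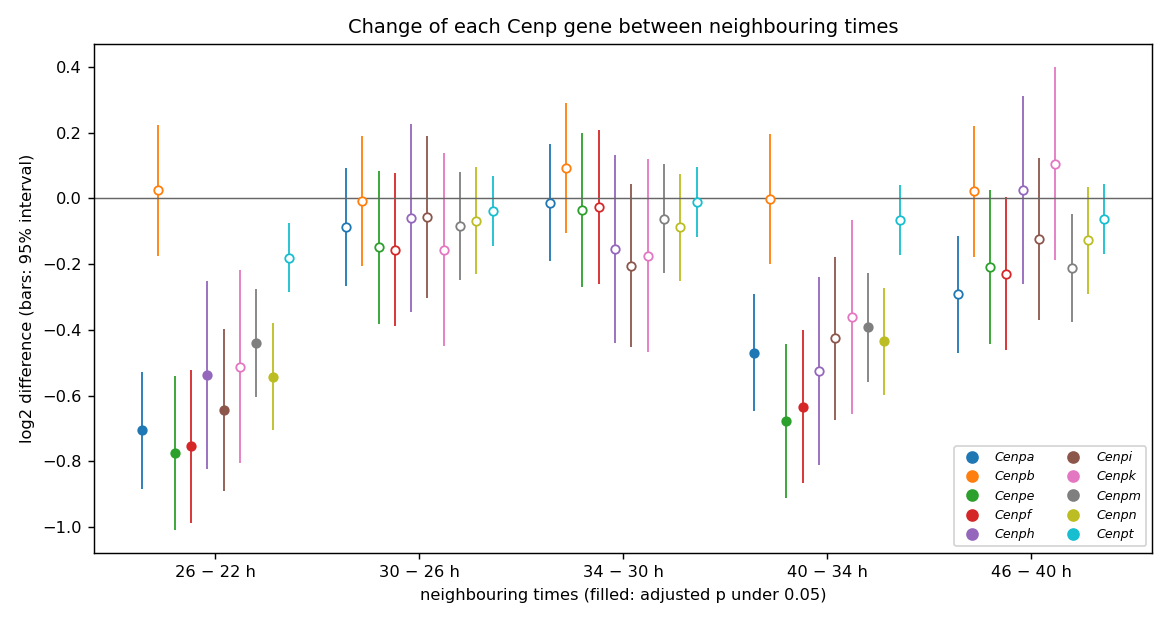
The log2 difference between neighbouring times (vertical axis) is plotted for each of the 10 genes in the 5 intervals (horizontal axis). Bars are 95% intervals from the fit over 18 arrays, and filled points have an adjusted p under 0.05. Filled points lie in the intervals from 22 to 26 h (7 genes) and from 34 to 40 h (5 genes).

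Whether the pace itself changed was tested as a difference in log2 change per hour, again added after the data were seen. The 9 genes that fell did so faster from 22 to 26 h than from 26 to 34 h, and the difference passed in 1 of 10 genes, Cenpa (-0.16 ± 0.03 per hour, adjusted p = 0.0193, limma), where 0.221% of all genes passed in this direction. The count was 4 with a constant of 64, without dim genes or with a variance trend, 7 with array weights, where 667 of all genes were called, and 0 at a threshold of 0.01. An unadjusted p under 0.05 was reached by 8 of 10 genes, and adjusted p was 0.065 for Cenpe, 0.0703 for Cenpf and 0.07 for Cenpn. The call for Cenpa was lost without replicate 1 or 3 of 22 h or replicate 1 or 2 of 26 h, and 5 genes passed without replicate 2 of 22 h, 3 without replicate 2 of 40 h, and 2 without replicate 1 of 40 h or replicate 2 of 46 h. Between the intervals from 34 to 40 h and from 26 to 34 h, 0 of 10 genes and 0% of all genes passed, with 5 of the 10 and 1258 of all genes at an unadjusted p under 0.05.

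A cosine with a period of 24 h, the circadian pattern named in the title of the series, was called in 0 of 10 genes by limma, where 0.828% of all genes were called. Amplitudes, the log2 distance from mean to peak, ran from 0.05 in Cenpb to 0.39 in Cenpe, and adjusted p from 0.222 to 0.658. An unadjusted p under 0.05 was reached by Cenpk (0.0435) and by 4248 of all genes. Such a curve is bound to equal levels 24 h apart, whereas 9 of these genes differed between 22 h and 46 h. With a linear term in time added to this cosine, adjusted p ran from 0.36 in Cenpa to 0.948 in Cenpb (limma). At a period of 26 h 1 of 10 genes, Cenpk, passed (adjusted p = 0.045), where 9.96% of all genes did, so this count is near the background.

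The other Cenp and inner centromere genes were measured on the same arrays. Of 12 measured, 9 fell between 22 h and 46 h and 0 rose, with a list median of -0.49. In the Cenpo, Cenpp, Cenpq, Cenpu and Itgb3bp group, which forms 1 complex, the falls were 0.45 ± 0.06, 1.06 ± 0.13, 0.87 ± 0.15, 1.03 ± 0.11 and 0.54 ± 0.12. Cenpl, the partner of Cenpn, fell by 0.88 ± 0.08. In the histone-fold group of Cenpt, the difference was -0.72 ± 0.09 for Cenpw (adjusted p = 2.29e-05), -0.21 ± 0.08 for Cenpx (adjusted p = 0.0628) and -0.06 ± 0.08 for Cenps (adjusted p = 0.678). Cenpc1, the protein that ties the inner network to Cenpa nucleosomes and to the outer kinetochore, fell by 0.29 ± 0.10 (adjusted p = 0.044). Cenpj, a centrosome protein in spite of its name, fell by 0.39 ± 0.06, and Cenpv differed by 0.24 ± 0.09 (adjusted p = 0.0568). From 22 to 26 h 2 of 12 fell, Cenpl and Cenpp, and from 34 to 40 h 0 of 12, with adjusted p of at least 0.111 by limma.

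**Figure D3:**
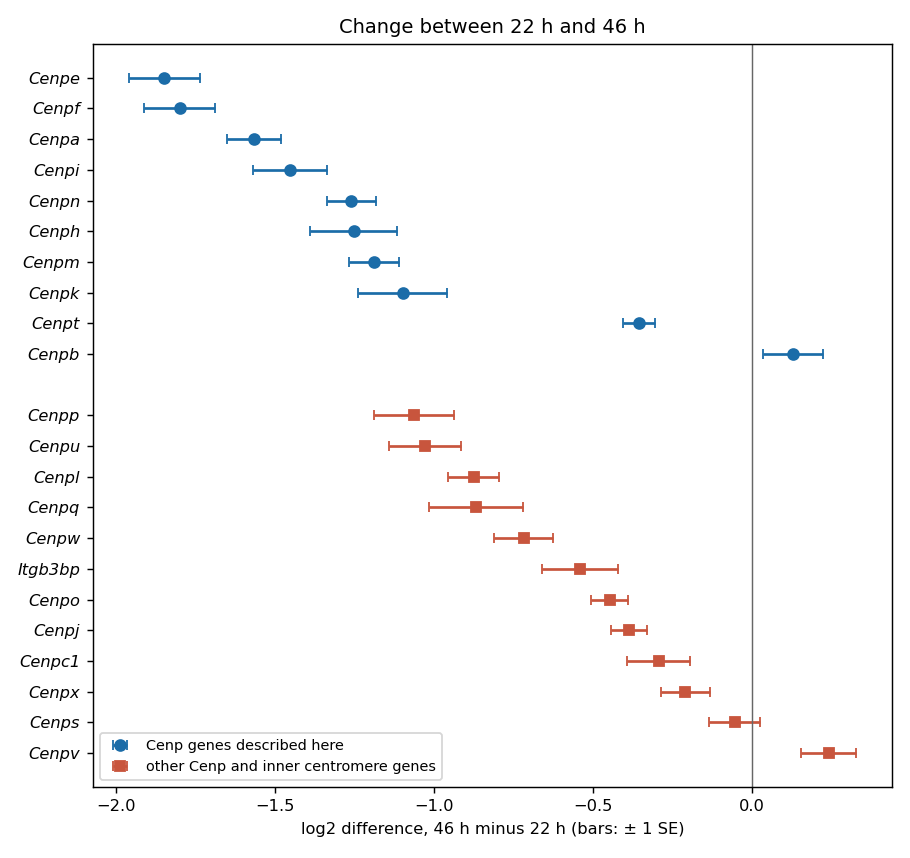
The log2 difference of 46 h minus 22 h (horizontal axis) is plotted for the 10 Cenp genes described here (circles) and for 12 other Cenp and inner centromere genes (squares), with bars of 1 SE. Cenpb and Cenpv lie to the right of 0, and Cenpe and Cenpf lie farthest to the left.

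The proteins that work beside the Cenp proteins gave the following counts for 46 h against 22 h, with 9.73% of all genes lower and 11.5% higher. All 13 measured outer kinetochore genes fell, with a list median of -0.98. Among them were Ndc80 (-1.47 ± 0.09) and Knl1 (-1.43 ± 0.11), parts of the network that binds microtubules, Spc25 (-1.37 ± 0.11) and Nsl1 (-0.98 ± 0.09). All 8 genes of chromosomal passengers and cohesion protection fell, with a list median of -1.35, including the kinase gene Aurkb (-1.19 ± 0.06), Birc5 (-1.45 ± 0.08), Sgo2a (-1.41 ± 0.08), which guards centromeric cohesion, and Kif2c (-1.81 ± 0.09). Of 15 spindle checkpoint and corona genes 10 fell and 0 rose, with a list median of -0.54. Spag5 (-1.60 ± 0.09), Bub1b (-1.58 ± 0.09), Ttk (-1.60 ± 0.10) and Zwilch (-1.27 ± 0.09) had the smallest p.

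Genes that load Cenpa onto chromatin were split. Of 8 measured, 2 fell: Oip5 (-1.24 ± 0.09) and Mis18a (-0.74 ± 0.10), which act in the licensing complex for new Cenpa. The other 6 did not pass, and their differences lay between -0.15 and 0.11. These genes have wider roles, such as the histone chaperone gene Rbbp4 (-0.06 ± 0.13, adjusted p = 0.781). Of 10 genes of the heterochromatin around centromeres 5 fell and 0 rose, with a list median of -0.19. Those with the smallest p were Uhrf1 (-1.11 ± 0.09), Dnmt1 (-0.52 ± 0.07), Suv39h2 (-0.97 ± 0.14) and Hells (-0.80 ± 0.13), and of the heterochromatin protein genes Cbx5 fell (-0.21 ± 0.06, adjusted p = 0.0245), while Cbx1 and Cbx3 differed by -0.07 and -0.17 and did not pass. As a reference for dividing cells, 8 of 9 proliferation genes fell, with a list median of -0.82, among them Mki67 (-1.40 ± 0.07), Ccna2 (-1.37 ± 0.07), Plk1 (-1.48 ± 0.09) and Top2a (-1.22 ± 0.10).

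The genes whose levels over the 18 arrays were most like each Cenp gene were named by Pearson's r, 3 for each, as a description. All such correlations share the trend over time and the array effects. For Cenpe these were Kif11 (r = 0.997), Cdkn3 (0.997) and Kif23 (0.996), for Cenpf Bub1b, Cdc25c and Kif20a (0.995 each), and for Cenpa Kif20a (0.994), Bub1b (0.994) and Kif2c (0.993). For the inner network they were Gen1, Brca1 and Mastl for Cenph (0.988 to 0.993), Kntc1, Top2a and Knstrn for Cenpi (0.992 to 0.993), Troap, Cdca3 and Pimreg for Cenpm (0.991 to 0.992), and Aurkb, Sgo2a and Tpx2 for Cenpn (0.993 to 0.994). Those of Cenpk were Prim2 (0.989), Chek1 (0.984) and Pclaf (0.983). Cenpt was most like Reep4 (0.943), Cdc20 (0.938) and Cdc25b (0.931). Cenpb was most like Zfand2a (0.898), Pcx (0.879) and 1700052K11Rik (0.868), which differed by 0.09, 0.09 and 0.15 between 46 h and 22 h.

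Replicates of 1 time also differed from each other in a shared way. After the time means were taken out, the deviations of the 8 genes with the larger falls correlated with each other over the 18 arrays with a median Pearson's r of 0.76 and a range from 0.11 (Cenpk and Cenpm) to 0.92 (Cenpe and Cenpk). Deviations sum to 0 within a time, so these 18 points are fewer independent values. On replicate 2 of 22 h all 8 genes lay below their time mean, and likewise on replicate 1 of 40 h, replicate 2 of 46 h and replicate 2 of 26 h. The median deviations on these arrays were -0.20, -0.15, -0.14 and -0.08 log2. Against these 8 genes Cenpb had r from -0.80 (Cenpi) to 0.00 (Cenpm). Across all genes 33.8% of the variance within times lay along 1 component. The deviations of Cenpi (0.86) and Cenpb (0.85) followed it most closely in absolute correlation, and those of Cenpm (0.02) least. The part of this component in the results above was not tested, beyond the fits that left out each array in turn: the 9 falls between 22 h and 46 h passed in each of those 18 fits.

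**Figure D4:**
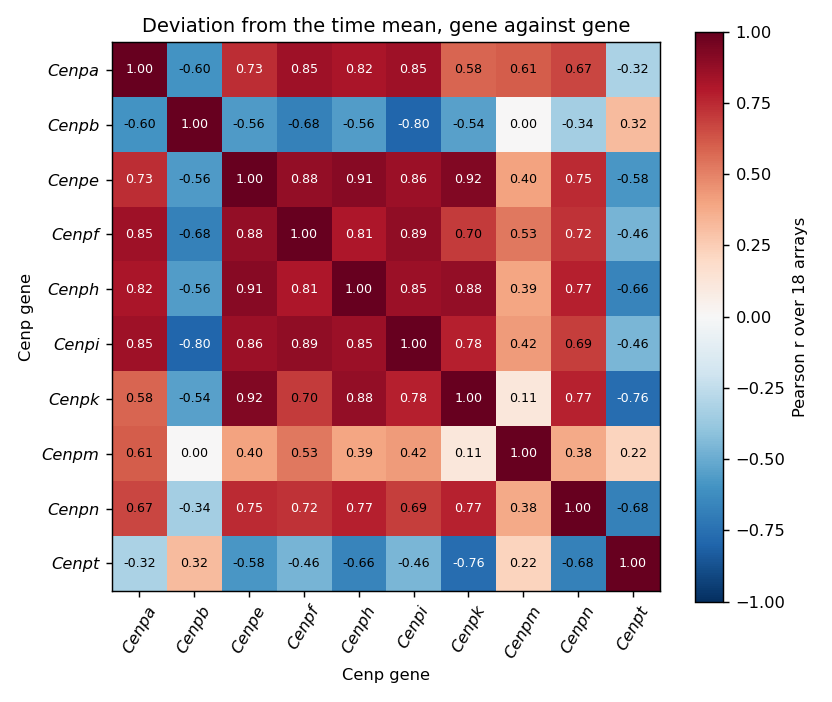
Each cell gives Pearson's r between 2 Cenp genes (rows and columns) over 18 arrays, after the mean of each time was subtracted from the log2 level. Red cells are positive and blue cells negative. The block of Cenpa, Cenpe, Cenpf, Cenph, Cenpi, Cenpk and Cenpn is red, Cenpb and Cenpt are blue against it, and Cenpm is paler.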

How the data were processed

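Each of 18 RNA samples went onto 1 Affymetrix array after random-primed whole-transcript labelling, per the labels' protocols. The authors deposited 1 linear intensity for each probe set. The submitters' processing notes name Affymetrix Expression Console 1.1 and PLIER 2.0 without settings. The table held 35556 probe sets, of which the platform annotation gave 21789 a unique gene symbol and 1621 several, while 12146 were unnamed. For genes with several probe sets (999) the brightest was kept, leaving 19938 genes.

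Intensities were taken as log2(value + 16), which understates changes of dim genes, and quantile normalized, since array quartiles differed by up to 0.154 log2. Lower quartiles were higher on every array of 40 h and 46 h than on any earlier array. The normalization thus removed a difference that goes with time. Time means were fitted to all 18 arrays with limma 3.58.1 (R 4.3.3; lmFit, eBayes), and a cosine of 24 h in a separate fit. P-values were adjusted by Benjamini-Hochberg over all genes, with a threshold of 0.05. A change was called where it passed. The fits were tested on simulated data with independent noise for each gene and array. Such data cannot show how the fits behave under deviations shared between genes. The labels do not say whether replicate numbers mark pairs across times, so the main fit held no pairing. Deviations of same-numbered arrays had r from -0.56 to 0.49. These values cannot settle the question, since deviations sum to 0 within a time. Pairs of Cenp genes were first compared in limma with every gene taken relative to 1 of them. That version, which called 32 of 45 pairs, was replaced after its result was seen, because the noise of that gene is then shared by all genes.

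The Cenp genes, gene lists and motifs were chosen with earlier results of these data known. The genes named are the Cenp genes, all measured genes of the list of other Cenp genes, up to 4 called genes with the smallest p of each other list (Rbbp4, Cbx1, Cbx3 and Cbx5 were named after their values were seen), and the 3 genes most like each Cenp gene. List members without a probe set of their own are not reported here. Alternatives covered normalization, the added constant, dim genes, probe sets, the replicate block, array weights, the variance model, the threshold, periods, a linear term, the arrays fitted and each array left out.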

Additional observations from a re-analysis of the deposited data

How the results depend on the processing

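The counts of Cenp genes called by the F test (9) and between 22 h and 46 h (9) held with each array left out in turn (9 in all 18 fits) and in all other alternatives run, apart from 8 by the F test without the arrays of 22 h. The log2 difference of every Cenp gene between 22 h and 46 h kept its direction and its side of the threshold in all 28 alternatives. With the values as deposited these differences moved by at most 0.049, and the median of all genes went from 0.03 to 0.06. The number of all genes called between 22 h and 46 h was then 6043 instead of 4234. The count from 22 to 26 h (7) ranged from 5 to 8 with arrays left out and from 5 to 9 otherwise. From 34 to 40 h the count (5) was 3 at a threshold of 0.01, and 1 to 8 with arrays left out. The count of genes with a steeper fall from 22 to 26 h than from 26 to 34 h (1) was 4 with a constant of 64, 4 without dim genes, 7 with array weights, 4 with a variance trend, 0 at a threshold of 0.01, and 0 to 5 with arrays left out. The cosine count (0) was 1 at a period of 26 h, where 9.96% of all genes were called. The number of pairs of Cenp genes with different changes (28) was 7 with the 6 arrays of 22 h and 46 h alone, which leaves fewer residual degrees of freedom, and 23 to 30 with arrays left out. Of 75 listed genes, markers left out and proliferation genes included, 55 were called between 22 h and 46 h (all genes: 4234 of 19938). The count for the lists ranged from 50 to 61 over its alternatives. It was 61 with array weights, where 8790 of all genes were called. The cause of the other changes was not tested. With the replicate number as a block the fit called 9 Cenp genes between 22 h and 46 h, 6 from 22 to 26 h and 5 from 34 to 40 h, and 3838 instead of 4234 of all genes between 22 h and 46 h. Deviations of same-numbered arrays had a median correlation of -0.10, and 3 of 18 arrays correlated best with their own number. All 10 genes passed the filter on dim genes, and 3 arrays per time limit the precision of the smaller steps.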
